A study of Equus caballus with 4 samples.

Results

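Collagen genes were examined with an Agilent horse expression array in cultures of equine satellite cells, which are the stem cells of skeletal muscle. They were taken as the symbols of the form *col*, type number, *a*, chain number in the array annotation, which gave 38 of the 24998 gene names, carried by 112 probes of 60 bases. The cells came from m. semitendinosus of 6-month-old stallions and had differentiated for 3 days. In the HMB-treated group they received 50 µM HMB, a leucine metabolite, for 24 h, with 3 mM H2O2 during the last 1 h, whereas the control group received H2O2 without HMB. Each of 4 arrays carried Cy5-labeled RNA of the HMB-treated group and Cy3-labeled RNA of the control, with the dyes in that order on all arrays, so the treatment and the dye cannot be told apart. The control bears the same replicate number on every array, and if it was 1 RNA its spread is missing from the errors below. Both groups grew on plates coated with collagen I protein, had passed a pre-plating step meant to remove fibroblasts, and came from a culture picked for viability and fusion, so the 4 arrays need not stand for 4 horses.

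Collagens are secreted proteins whose chains wind around each other in a triple helix built from the Gly-X-Y repeat. Fibrillar collagens (types I, II, III, V, XI, XXIV and XXVII) form the tension-bearing fibrils of the endomysium and perimysium, and type IV collagen forms the network of the basement membrane around each muscle fiber. Type VI collagen makes beaded filaments that link that basement membrane to the fibrils, and its loss in humans causes muscle disease. In skeletal muscle, collagens are made mostly by resident fibroblasts, although cultured satellite cells make them as well.

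The probes behind the main comparisons are given as deposited, 5′ to 3′ in the sense of the transcript, with EquCab1 coordinates. For *col6a2* (chr26:655606-655665, minus strand), the probe that passed the test is given. The probe of *col6a1* lay over an exon junction (chr26:787642-788585, minus strand), since its 60 bases spread over 944 bases of genome. In the first *col3a1* probe (chr18:54032080-54032139, plus strand) and the first *col1a2* probe (chr4:37544058-37544117, plus strand), capitals mark the 56 bases shared by the 5 overlapping probes that were tiled there. The second *col3a1* probe (chr18:54060442-54060501) and the second *col1a2* probe (chr4:37544278-37545231, an exon junction) lay closer to the 3′ end. In the *col11a1* probe (chr5:36733403-36738146, plus strand, a junction), capitals mark the GG of each glycine codon of the Gly-X-Y repeat.
col6a2: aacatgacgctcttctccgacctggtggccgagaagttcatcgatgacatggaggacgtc
col6a1: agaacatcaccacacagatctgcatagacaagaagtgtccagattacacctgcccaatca
col3a1, toward the 5′ end: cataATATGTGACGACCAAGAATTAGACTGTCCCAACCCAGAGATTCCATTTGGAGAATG
col3a1, toward the 3′ end: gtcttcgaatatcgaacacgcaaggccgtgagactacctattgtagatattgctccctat
col1a2, tiled: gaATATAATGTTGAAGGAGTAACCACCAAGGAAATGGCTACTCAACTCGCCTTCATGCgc
col1a2, junction: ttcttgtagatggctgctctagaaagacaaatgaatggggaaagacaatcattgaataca
col11a1: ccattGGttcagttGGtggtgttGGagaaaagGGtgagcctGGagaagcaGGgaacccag
A run with GGNNNNNNN from end to end was found in 3 of 43603 probes (0.00688%), read on the probe strand alone, and all 3 belonged to collagens (*col2a1*, *col11a1* and *col25a1*).

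Of the 38 genes, 15 had a probe bright enough to be tested, that is, with Cy5 or Cy3 well above background on each array, and 50 of the 112 probes met this rule. The other 23 genes were not tested, and 11 of these were never well above background on any probe, channel or array. The tested genes were 4 of 8 fibrillar genes (*col1a2*, *col3a1*, *col5a2*, *col11a1*), 2 of 6 type IV genes (*col4a1*, *col4a2*), 3 of 5 type VI genes (*col6a1*, *col6a2*, *col6a3*), 3 of 9 fibril-associated (FACIT) genes (*col12a1*, *col16a1*, *col22a1*), *col7a1*, *col8a2* and *col18a1*. The cartilage collagens *col2a1*, *col9a1*, *col9a2*, *col9a3*, *col10a1* and *col11a2* stayed under the rule, as did the type IV genes *col4a3*, *col4a4*, *col4a5* and *col4a6* and all 4 transmembrane genes on the array (*col13a1*, *col17a1*, *col23a1*, *col25a1*). The remaining untested genes were *col6a5*, *col6a6*, *col14a1*, *col19a1*, *col21a1*, *col24a1*, *col26a1*, *col27a1* and *col28a1*. No collagen spot was saturated.

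With the deposited normalization, 2 type VI genes, *col6a3* and *col6a2*, were higher in the HMB-treated group and no collagen gene was called lower. The count depended on the scaling and the test. Scaled to the spike-in RNA instead, which moved the median of all gene names by -0.49, 9 collagen genes were called lower and none higher, with *col6a3* at 0.03 and *col6a2* at -0.08. That scaling subtracts a constant from all genes of an array, so by construction the shift was not particular to collagens. Under it 10378 of all 14107 tested gene names were called, and 6.26% of those calls were higher. With median centering without lowess, with the methods' t-test and with limma's treat, 0 collagen genes were called. Over all 14107 tested gene names the calls under these settings numbered 0, 2722 and 1524, respectively. A gene was called at a limma adjusted p of 0.05 or less and a fold change (FC) of 1.3 or more, on the log2 ratio of Cy5 over Cy3 averaged over its probes, where a positive value means higher with HMB. The 2 calls made up 13.3% of the 15 tested collagen genes, whereas 28.6% of all 14107 tested gene names were called, 12.4% as higher and 16.2% as lower. At an unadjusted p under 0.05, 3 of the 15 genes stood out, and *col3a1* was the third. The mean ratio was above 0 for 8 genes and below 0 for 7, and their median was 0.03, beside -0.06 over all tested gene names. Probe by probe, 6 of the 50 tested collagen probes (12%) were called, all higher, against 28.3% of all tested probes (12.1% higher and 16.3% lower). The probes are not separate measurements, since 28 of the 50 overlap another tested probe. Of the 6 called probes, 3 are overlapping probes of *col3a1*, which was not called as a gene.

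**Figure D1:**
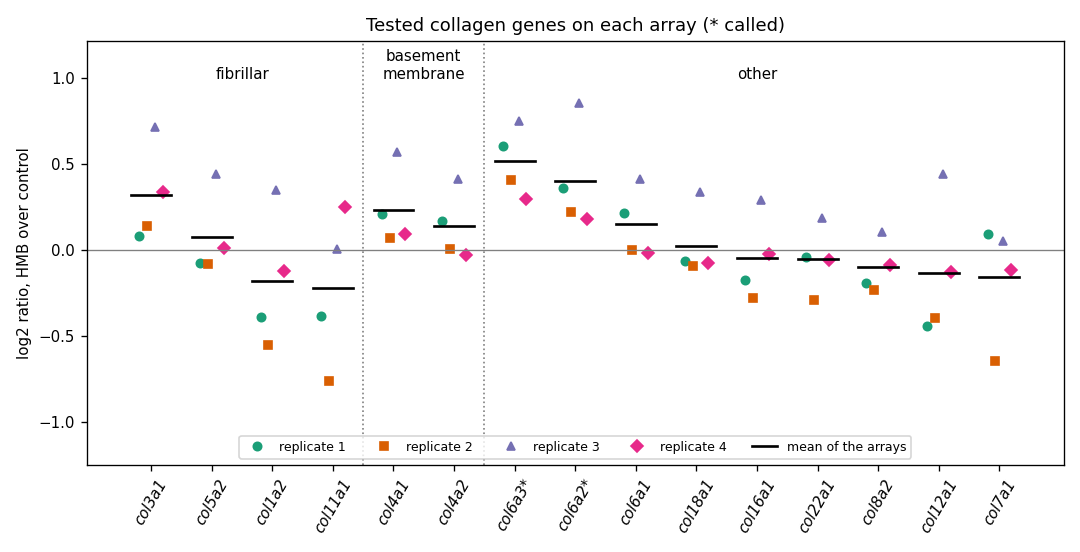
Log2 ratio of HMB over control for the 15 tested collagen genes on each of 4 arrays, grouped as fibrillar, basement membrane (type IV) and other types; symbols are arrays, bars are means and asterisks mark called genes. Replicate 3 lies highest for 13 genes, and *col6a3* and *col6a2* have all arrays above 0.

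The gene *col6a3* codes for the longest chain of type VI collagen, which is needed for the filaments to assemble. Its log2 ratios were 0.61, 0.41, 0.75 and 0.30 on replicates 1 to 4, so all arrays lay above 0. The mean was 0.52 ± 0.20 (SD, n = 4), an FC of 1.43 with a 95% interval of 1.23 to 1.67 (limma adjusted p = 0.0053). Its 2 probes, which lie next to each other on chromosome 6 (23530463-23530522 and 23530531-23530590), were both called, with means of 0.58 and 0.46. The call was lost under the methods' t-test (adjusted p = 0.0504), under treat, with median centering (mean 0.38, adjusted p = 0.747) and after scaling to the spike-in RNA (mean 0.03, adjusted p = 0.818), and over all alternatives the adjusted p ranged from 0.000933 to 0.818.

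The gene *col6a2*, which codes for 1 of the shorter type VI chains, had ratios of 0.36, 0.22, 0.85 and 0.18. All arrays were above 0, but replicate 3 was far above the others. The mean was 0.40 ± 0.31 (SD, n = 4), an FC of 1.32 with an interval of 1.08 to 1.62 (limma adjusted p = 0.0355). Of its 2 probes, the one printed above was called (0.14, 0.39, 1.04 and 0.29), and the other, at chr26:649557-649616, was not (0.58, 0.06, 0.67 and 0.07). The order of the arrays differed between these probes, since replicate 1 was high on 1 probe and the lowest on the other. The call was lost without replicate 1 (adjusted p = 0.0705), 2 (0.054) or 3 (mean ratio 0.25, adjusted p = 0.0527), and the adjusted p ranged from 0.0128 to 1 over all alternatives. Normexp with loess, in which the background was modeled and the dyes were matched anew from the raw signals, brought the mean to 0.23, under the FC threshold. Loess without background correction (0.37) and a correction for GC content (0.36) also left it under that threshold. The adjusted p of 0.0128 came from that loess setting, where the gene was thus not called. Without the filter on dim probes the call was lost as well (adjusted p = 0.13).

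The remaining tested type VI gene, *col6a1*, had ratios of 0.22, 0.00, 0.41 and -0.02 and did not pass (mean 0.15 ± 0.20, limma adjusted p = 0.207). These levels lay below those of *col6a3* on every array.

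Chains of the same collagen type share an array, so their ratios can be set against each other there. Such a difference also holds whatever sets the probes apart, and *col6a1* and *col4a2* rest on 1 tested probe each. Between the first and last stretch of the same gene, the mean difference ran from -0.04 (*col5a2*) to 0.71 (*col11a1*) over 9 genes. It was 0.32 ± 0.10 in *col3a1* and 0.12 ± 0.03 in *col6a3* (SD, n = 4). Whether chains or probes differ was thus not tested. The ratio of *col6a3* exceeded that of *col6a1* by 0.39, 0.41, 0.34 and 0.31, a mean difference of 0.36 ± 0.04 (SD, n = 4). This spread was narrower than that of either chain alone (0.20 for both), and the chains ranked the arrays in the same order. With 4 arrays the exact two-sided sign-flip test cannot go below p = 0.125, which is the value found here (adjusted p = 0.146 over 7 pairs). Between *col6a2* and *col6a1* the mean difference was 0.25 ± 0.13, with the same sign on 4 of 4 arrays and the same exact p. Between *col6a3* and *col6a2* it was 0.11 ± 0.15, with replicate 3 of opposite sign (exact p = 0.25, adjusted p = 0.25). The type IV chains *col4a1* and *col4a2* differed by 0.10 ± 0.05, the smallest mean difference of the 7 pairs (exact p = 0.125, adjusted p = 0.146).

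**Figure D2:**
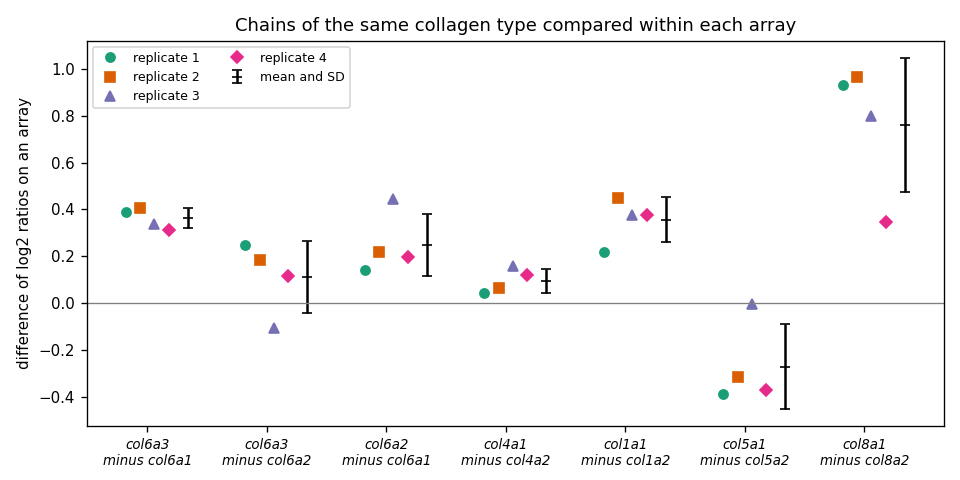
Difference between the log2 ratios of paired chains of the same collagen type on each of 4 arrays, with the mean and SD beside the symbols. The difference of *col6a3* and *col6a1* stays between 0.31 and 0.41, and that of *col6a3* and *col6a2* crosses 0.

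Of the fibrillar genes, none was called. The gene *col3a1*, which codes for the chain of type III collagen found with type I in the fibrils of soft tissues, had the highest fibrillar ratio. Its values were 0.08, 0.14, 0.71 and 0.34, with a mean of 0.32 ± 0.29 (SD, n = 4; limma adjusted p = 0.0614), and its 95% interval ran from an FC of 1.03 to 1.51. The mean rests on 5 overlapping probes toward the 5′ end, which gave 0.39 on average and of which 3 were called. The pair of brighter probes toward the 3′ end gave 0.24 and 0.06 and were not called. The 5′ probes exceeded the last 3′ probe on each array, by 0.19, 0.38, 0.29 and 0.42. With the overlapping probes counted as 1, or with the brightest probe alone, the ratio of the gene fell to 0.23 and 0.06, respectively. With loess on the raw signals without background correction, *col3a1* was called (0.41, adjusted p = 0.0139; 0.0139 to 1 over all alternatives).

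The gene *col1a2*, which codes for the α2 chain of type I collagen, had ratios of -0.39, -0.55, 0.35 and -0.12. Only replicate 3 was above 0, and the mean was -0.18 ± 0.40 (SD, n = 4; limma adjusted p = 0.358). Its 5 tiled probes averaged -0.08, and the 4 probes downstream, which were brighter, averaged between -0.19 and -0.40 each. The last bright probe (chr4:37545294-37545353) gave -0.23, so the ratio did not fall steadily along the gene.

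The fibrillar gene *col5a2*, whose type V chain sits in the core of type I fibrils, was close to 0 (mean 0.07 ± 0.25, SD, n = 4), and its 3 probes ranged from 0.04 to 0.11. The gene *col11a1*, a fibrillar chain best known from cartilage, had a mean of -0.22 ± 0.44 (SD, n = 4). Its probes disagreed, since the junction probe within the Gly-X-Y repeat gave 0.69, -0.64, -0.02 and 0.87, whereas the pair of probes downstream had means of -0.41 and -0.48. Both downstream probes lay between -0.98 and -0.77 on replicates 1 and 2 and between -0.10 and 0.07 on the others.

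**Figure D3:**
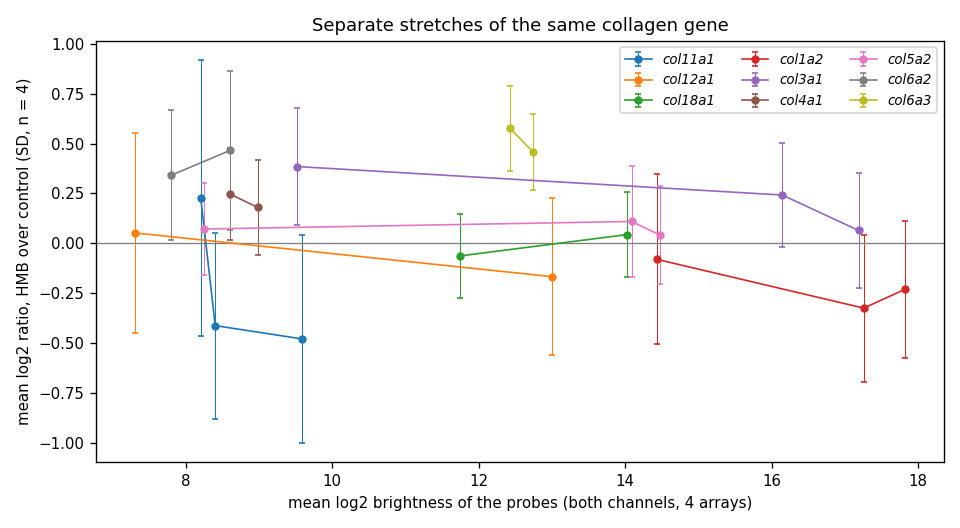
Mean log2 ratio (SD, n = 4 arrays) of separate stretches of the 9 collagen genes probed at more than 1 place, against the mean log2 brightness of the probes; overlapping probes are averaged into 1 point, and lines join points of the same gene. In *col3a1* the ratio falls from 0.39 at the dimmest to 0.06 at the brightest stretch, and the *col6a3* points are at 0.58 and 0.46.

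Neither tested type IV gene was called. These chains, *col4a1* and *col4a2*, make up the most widespread form of the basement membrane network. The ratios of *col4a1* were 0.21, 0.07, 0.57 and 0.09, all above 0 (mean 0.24 ± 0.23, SD, n = 4; limma adjusted p = 0.0949). Those of *col4a2* were 0.17, 0.01, 0.41 and -0.03 (mean 0.14 ± 0.20; adjusted p = 0.251), with Cy5 well above background on 3 of 4 arrays. Their 95% intervals ran from an FC of 1.00 to 1.39 and from 0.95 to 1.28, respectively.

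The median of the mean ratios was -0.05 for fibrillar, 0.19 for type IV and -0.05 for other types. From replicate 1 to 4 the fibrillar medians were -0.23, -0.32, 0.40 and 0.13, those of type IV 0.19, 0.04, 0.49 and 0.03, and those of the other types -0.04, -0.23, 0.34 and -0.06. Thus each class spanned more between arrays than the classes differed in their means. Within the other types the 3 type VI genes had a median of 0.40, and the 6 genes outside type VI lay between -0.15 and 0.03.

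These 6 genes were not called. The FACIT genes, whose products decorate fibrils, had means of -0.13 (*col12a1*), -0.05 (*col16a1*) and -0.05 (*col22a1*, found at the myotendinous junction). The anchoring fibril gene *col7a1* had -0.15 and the short-chain gene *col8a2* -0.10. The basement membrane proteoglycan core *col18a1* had 0.03, with replicate 3 at 0.34 and the others between -0.09 and -0.07.

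Replicate 3 stood apart in the whole family. All 15 tested genes were above 0 on it, against 7, 6 and 6 genes on replicates 1, 2 and 4. Its ratio was the highest of the 4 arrays for 13 genes (86.7%), the exceptions being *col7a1* and *col11a1*, whereas over all gene names it was the highest for 30.7%. The collagen median was -0.04, -0.09, 0.41 and -0.02 on replicates 1 to 4, beside medians over all gene names between -0.07 and -0.05. The pattern was not particular to collagen genes, since replicate 3 also had the highest median in each of the 6 lists of collagen-related genes described below. For proteins that bind collagen fibrils, the medians were -0.33, -0.52, 0.21 and -0.11. Without replicate 3, 6 of 15 genes had a mean above 0 and 9 below, *col6a3* was the only call, and the ratios of *col5a2* and *col18a1* turned negative.

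The array lists 5 further chains under an accession in place of a symbol, so the rule does not take them, but their descriptions name them as collagens. For *col1a1*, the α1 chain of type I collagen, the mean was 0.18 ± 0.41 (SD, n = 4), with -0.17, -0.11, 0.73 and 0.26 on the arrays. It exceeded *col1a2* by 0.22, 0.45, 0.38 and 0.38, a mean difference of 0.36 ± 0.10 (exact p = 0.125, adjusted p = 0.146). The single probe of *col8a1* (chr19:51526273-51526332) gave 0.74, 0.73, 0.91 and 0.26, above 0 on all arrays, with an FC of 1.58 (mean 0.66 ± 0.28; limma adjusted p = 0.00472). It was thus the collagen chain with the largest called ratio when these chains were added, which gave 3 calls among 20 tested chains, beside 28.6% of all gene names. The added chains were fitted with the deposited normalization and the main test only, so how the *col8a1* call depends on these was not tested. The partner chain of *col8a1*, *col8a2*, also on 1 probe, lay lower by a mean of 0.76 ± 0.29 (exact p = 0.125, adjusted p = 0.146). The chains *col5a1*, *col5a3* and *col15a1* had means of -0.19, -0.01 and 0.19 and were not called, and *col5a1* was below *col5a2* by 0.27 ± 0.18 on average (exact p = 0.125, adjusted p = 0.146).

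Genes that make, modify, bind and break down collagen were counted in 6 lists, to be read beside the 12.4% higher and 16.2% lower among all gene names. Of 19 calls in these lists, 7 held under normexp with loess, 11 under loess without background correction, 0 under median centering and 12 under scaling to the spike-in RNA. Over all 14107 tested gene names, the main test made 4041 calls. Under the same settings, in that order, the calls made there numbered 1799, 2392, 0 and 10378, whether or not the main test had made them. Of 13 tested enzymes and chaperones of the endoplasmic reticulum, 1 was higher and 1 lower, and neither call held under normexp with loess. The lysyl hydroxylase *plod1* was higher with HMB (0.59, 0.24, 0.62 and 0.08; mean 0.38, adjusted p = 0.0293), at the FC threshold of 1.3. The prolyl hydroxylase subunit *p4ha3* was lower (-0.33, -0.53, -0.65 and -0.15; mean -0.42, adjusted p = 0.0144). Among the procollagen peptidases and cross-linking enzymes, 1 of 9 was higher and 1 lower, and both remove the amino-terminal propeptide. These were *adamts3* (mean 0.52 ± 0.24, adjusted p = 0.00761) and *adamts14* (mean -0.51 ± 0.22, adjusted p = 0.00692). Under both loess alternatives neither was called, and *adamts14* came to -0.12 and -0.16. The genes *plod1*, *p4ha3* and *adamts14* rest on 1 tested probe each, and *adamts3* on 2.

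Of 5 tested collagen receptors, 2 were higher and 2 lower. The receptor tyrosine kinase *ddr2*, which binds fibrillar collagens, gave 0.50, 0.36, 0.66 and 0.77 (mean 0.57 ± 0.18, adjusted p = 0.00285), while *ddr1*, its relative in epithelia, gave -1.23, -1.23, -0.85 and -1.15 (mean -1.12 ± 0.18, adjusted p = 0.000203). The members of this receptor pair, each on 1 tested probe, thus lay on opposite sides of 0 on all arrays. The integrin α1 subunit gene *itga1* was higher (mean 0.52 ± 0.09, adjusted p = 0.00155), and the α2 subunit gene *itga2*, outside the rule for named genes and named after its values were seen, was lower (mean -0.40 ± 0.12, adjusted p = 0.00595). Normexp with loess left *ddr1* and *itga1* called, and scaling to the spike-in RNA brought *ddr2* to 0.09 and *itga1* to 0.04, not called.

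Of 4 tested enzymes of collagen breakdown, 2 were higher and none lower. Both are gelatinases, which cut denatured collagen and type IV collagen. Ratios of *mmp2* were 0.64, 0.55, 1.38 and 0.52 (mean 0.77 ± 0.41, FC 1.71, adjusted p = 0.00832), and those of *mmp9* 0.89, 0.61, 0.54 and 0.31 (mean 0.59 ± 0.24, adjusted p = 0.00486). For *mmp2*, replicate 3 was again the highest, and *mmp9* rests on 1 tested probe. Neither was called under normexp with loess (0.32 and 0.33) or after scaling to the spike-in RNA (0.28 and 0.10), where 1 other gene of the list was lower.

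Among 15 proteins that bind collagen fibrils, 2 were higher and 4 lower. The proteoglycan decorin (*dcn*), which binds type I and type VI collagen, had the highest ratio, 0.97, 0.76, 1.07 and 0.77 (mean 0.89 ± 0.15, FC 1.86, adjusted p = 0.000354). Dermatopontin (*dpt*, mean -0.78 ± 0.36) and cartilage oligomeric matrix protein (*comp*, mean -0.63 ± 0.08) were lower, at adjusted p of 0.00503 and 0.000666, respectively. Under the loess alternatives *comp*, on 1 tested probe, came to -0.21 and -0.31 and was not called. The remaining called genes of this list, named after their values were seen, were *lum* (0.45, higher), *cthrc1* (-0.50) and *sparc* (-0.42).

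Of 8 tested basement membrane partners of type IV collagen, 3 were lower and none higher, and all 3 code for laminin chains. The laminin genes *lama4* (0.19, adjusted p = 0.213) and *lamb2* (0.14, adjusted p = 0.424), named after their values were seen, were not called. The muscle laminin gene *lama2* gave -0.94, -0.68, -0.89 and -0.99 (mean -0.88 ± 0.14, FC 1.84 lower, adjusted p = 0.000325). The genes *lamb3* (mean -0.63 ± 0.39) and *lama3* (mean -0.55 ± 0.46) code for laminin chains best known from epithelia and had adjusted p of 0.0144 and 0.0388. The ratio of *lamb3* rests on 1 tested probe, with Cy5 well above background on 2 of 4 arrays. Under both loess alternatives only *lama2* of this list was called, with *lamb3* at -0.15 and -0.21 and *lama3* at -0.34 and -0.33. After scaling to the spike-in RNA the means of *plod1* and *lum* turned negative (-0.10 and -0.03), and the signs of the other 17 called genes did not turn under the 6 alternative scalings.

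**Figure D4:**
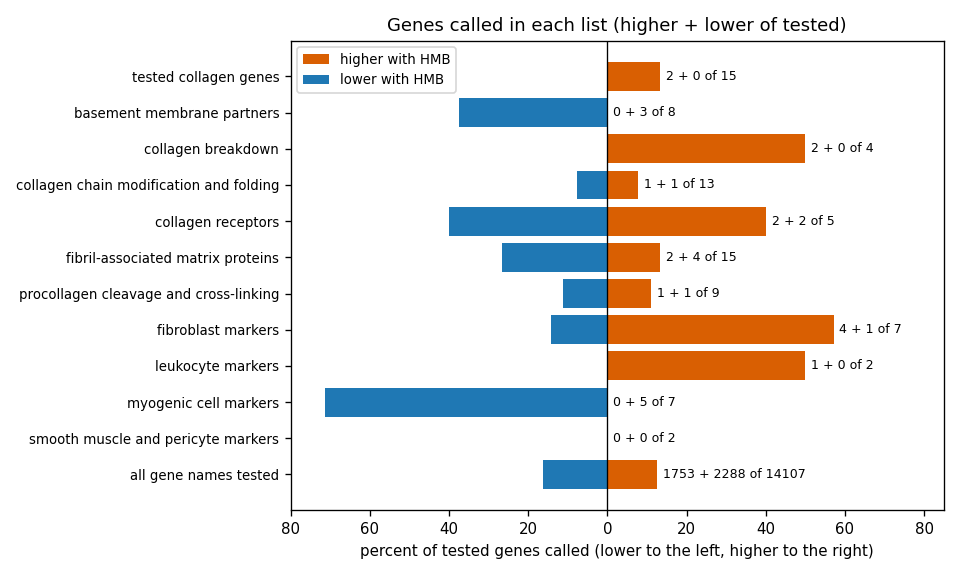
Percent of tested genes called higher (right) and lower (left) with HMB in each list, with the counts of higher plus lower calls of tested genes beside the bars. Laminin chains make up the 3 lower basement membrane partners, while the laminin genes *lama4* and *lamb2* were not called. All tested gene names stand at the bottom for comparison.

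Markers of cell types moved with the treatment under the main setting, and the part of cell composition in the collagen ratios was not tested. Their counts are to be read beside the 12.4% higher and 16.2% lower among all gene names. Fewer cells of a type and less RNA per cell cannot be told apart in these samples. Of 7 tested myogenic markers, 5 were lower and none higher, with *des* at -1.22, *acta1* at -1.10 and *myf5* at -1.63 (-0.76 and -1.02 under the loess alternatives), whereas *myog* was at 0.03 (adjusted p = 0.807) and not called. The median of this list was between -1.29 and -0.79 on the arrays, and least negative on replicate 3. Of 7 tested fibroblast markers, 4 were higher (*pdgfra* at 1.82, or 0.46 and 0.65 under the loess alternatives, and, named after their values were seen, *thy1*, *fap* and *lum*) and *dpt* was lower. The list median ranged from 0.22 to 0.68 and was highest on replicate 1, not on replicate 3. Scaling to the spike-in RNA left 1 fibroblast marker higher and 1 lower, with a list median of -0.03, and called all 7 myogenic markers lower. Under median centering 0 markers of either list were called, as was the case for all gene names. Of leukocyte markers *cd68* was higher (0.88), 1 of 2 tested. No endothelial (5 on the array) or adipocyte (4 on the array) marker was bright enough to be tested, and of smooth muscle and pericyte markers 0 of 2 were called.

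**Figure D5:**
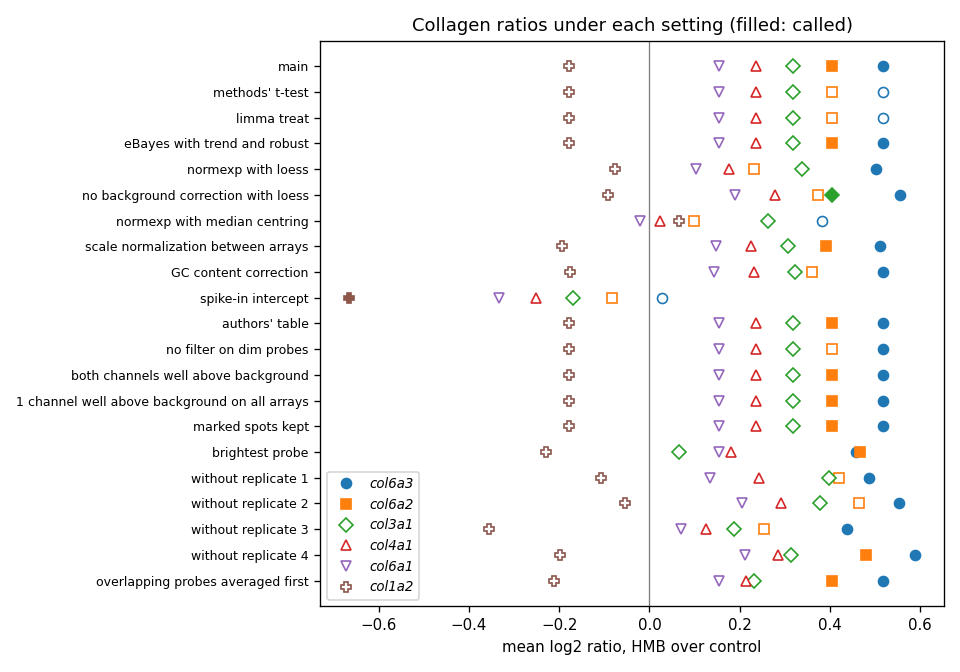
Mean log2 ratio of 6 collagen genes under the main setting and each alternative, with filled symbols where the gene was called. *col6a3* stays above 0 under all settings shown. Scaling to the spike-in RNA subtracts a constant from all genes of an array, so all 6 genes move down together by construction.

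The untested genes gave values only when the filter on dim probes was lifted, which brought them to ratios that rest partly on replaced background signals. Then *col14a1*, a FACIT of muscle connective tissue, gave 0.96, 1.74, 2.42 and 1.49 (mean 1.65, adjusted p = 0.0314). Its 5 probes overlap and at most 2 of 4 arrays were well above background in Cy5. The gene *col19a1* gave 0.44 (adjusted p = 0.0324), with 3 of 4 arrays above background in each channel, and *col17a1* gave -1.14 (adjusted p = 0.0337) with no array above background in either channel. For *col9a3* the mean was 1.61, with values from 0.40 to 2.99, and it was not called. All but 1 of its 6 probes overlap and carry that mean, whereas the separate probe gave -0.28, -0.02, 0.29 and -0.43. The pair of *col27a1* probes lay on opposite sides of 0 on all arrays, so their mean of -0.03 describes neither.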

How the data were processed

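The authors deposited Feature Extraction scanner files (version 10.10.1.1 in the headers), with spot intensity values and log10 ratios of Cy5 over Cy3 after background subtraction and linear and lowess normalization within the array, and a table of the same log10 ratios. Ratios were changed to log2 here. Controls and spots marked as outliers were left out, and spots of a probe and then tested probes of a gene name were averaged. The ratio was tested against 0 with limma 3.58.1 in R 4.3.3 (intercept, empirical Bayes, Benjamini-Hochberg correction over all gene names or probes), with thresholds from the study. The labels call the arrays biological replicates but name no animals, so p-values measure only the spread between arrays. Between 55.2% and 61.8% of probes per channel were well above background, and arrays correlated at r of 0.83 to 0.917 across probes. On simulated gene means (14098 genes, 200 changed, 50 per size), limma recovered 54% of 1.5-fold and 94% of 2-fold changes, with 7 false calls. Far fewer genes were changed there than the 28.6% called in the data, so these rates need not hold for the main test. Every collagen gene was accounted for, with values on each array for called genes and 8 set chains of types I, III, IV and VI, and for some others chosen after their values were seen. Up to 3 called genes per list and set markers were named. An item of the lists is not reported here and is left out of their counts. Members, lists and rules were chosen with earlier results of these data known. Intervals are unadjusted. No reference genome of the EquCab1 build was used, so exons were not looked up.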

Additional observations from a re-analysis of the deposited data

Results flagged for a closer look

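For *col18a1*, replicate 3 stood far from the other arrays: its distance to the nearest array made up 0.934 of the whole range, above Dixon's 95% critical value for 4 values. The array values were -0.07, -0.09, 0.34 and -0.08. It was the only such value among the 15 tested collagen genes and the 7 chain differences examined, and chance gives about 1 in 20.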

How the results depend on the processing

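No separate paired analysis was run, because each array gives 1 ratio of both RNAs and the main test thus already pairs them. The main count of 2 called collagen genes was 0 with the methods' t-test (1 gene at an unadjusted p under 0.05; 2722 of all gene names called) and with limma's treat (0 and 1524), 0 with normexp and median centering without lowess (0 at an unadjusted p under 0.05, and 0 of all gene names), 1 with normexp and loess, 1 after the GC correction, and 4 without the dim filter. With each replicate left out in turn it was 1 to 2, the called probes 2 to 8 (main 6) and the called genes of the 6 lists 14 to 18 (main 19). Called probes were 0 with treat, 1 with the t-test, 3 with normexp and loess and 0 with median centering. Called list genes were 4, 7, 7 and 0 in the same order, 11 without background correction and 11 without the dim filter.

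Scaling to the spike-in RNA lowered the median of all gene names by 0.49 and left 9 collagen genes called, all lower (29 probes and 32 list genes); the medians of fibrillar, type IV and other types became -0.54, -0.30 and -0.53. Of all 14107 tested gene names, 10378 were then called. Of these calls 6.26% were higher, against 43.4% in the main test. Under it the ratios of *col6a2* (-0.084), *col3a1* (-0.17), *col4a1* (-0.25), *col4a2* (-0.35), *col6a1* (-0.33), *col5a2* (-0.41) and *col18a1* (-0.46) turned negative, and *col6a3* came to 0.029 (adjusted p = 0.818) and was not called. Median centering turned *col1a2* (0.066), *col5a2* (-0.0066), *col6a1* (-0.021) and *col18a1* (-0.066). Loess without background correction turned *col16a1* (0.028) and *col22a1* (0.038), normexp with loess turned *col18a1* (-0.018), and averaging overlapping probes first, chosen after seeing the data, also turned it (-0.0095). With each replicate left out in turn, *col16a1* ranged from -0.158 to 0.032, *col22a1* from -0.128 to 0.031 and *col7a1* from -0.236 to 0.010 (each positive only without replicate 2), and *col5a2* from -0.049 to 0.127 and *col18a1* from -0.078 to 0.066 (each lowest without replicate 3). The turns under scaling to the spike-in RNA follow from the constant that it subtracts on each array. The cause of the other changes was not tested. The share of higher calls rose to 57.1% with normexp and loess and to 62.1% with loess alone. Dim signals limit the 23 untested genes.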
